A study of Drosophila melanogaster with 2 samples.

Results

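Binding of Jim, a C2H2 zinc finger transcription factor, was examined at 10 genes of larval neural stem cell biology: Syp, Imp, chinmo, brat, pros, mira, cas, svp, grh and dpn. They were picked by name, with earlier results of these data known. They are 10 of the 13945 protein-coding genes annotated on the 6 chromosome arms 2L, 2R, 3L, 3R, 4 and X. A region was given to a gene when its summit lay in the gene body or within 2 kb upstream, a span called the window here. The regions come from chromatin immunoprecipitation and sequencing (ChIP-seq) of whole wandering larvae of the third instar of Drosophila melanogaster, males and females pooled. The larvae carried a stable transgene for Jim fused at its C terminus to green fluorescent protein (eGFP), and an anti-GFP antibody was used. There was 1 group of 2 biological replicates, numbered 1 and 3 in the labels, with library size ranges of 175 to 275 bp and 200 to 325 bp, and no other genotype, stage or treatment. Chromatin came from all larval tissues at once, so binding in fewer cells and weaker binding in each cell cannot be told apart, and no region can be placed in neuroblasts.

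Neuroblasts are the neural stem cells of the fly. They divide asymmetrically, renewing themselves and giving off a smaller daughter that differentiates, and they change over time which neurons they make. In the larval brain, early neuroblasts have much of the RNA-binding protein Imp and late ones much of the RNA-binding protein Syp. The level of Chinmo protein follows this exchange. Mira carries Pros and Brat into the differentiating daughter, while Dpn marks the stem cell itself, and Cas, Svp and Grh belong to the series of transcription factors that sets timing.

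The deposited lists rank regions by a signal value whose scale holds within 1 list only, so ranks are given throughout, with 1 the strongest. The list of each replicate and the pooled list of both hold 30000 regions each, and a list thresholded on the irreproducible discovery rate (IDR), which keeps regions that recur between replicates, holds the strongest of the pooled list. The strongest regions of a replicate, as many as the IDR list holds, are called its top set. Read depth is unknown. Of the 10 genes, 5 carried an IDR summit: Syp had 4, grh 5, chinmo 2, brat 2 and Imp 1, which makes 14 regions. The other 5, pros, mira, cas, svp and dpn, had none. Over all protein-coding genes, 10.8% had an IDR summit in the window, and over the 1143 with a window of at least 20 kb the share was 29.9%. Of the 10 genes 7 are that long, and 5 of these 7 had an IDR summit. The median gene length was 45.9 kb for the 7 and 33.9 kb for the 1143, so the 29.9% is only roughly matched for length. The 3 shorter ones, mira, cas and dpn, had none. In the pooled list at any rank, 9 of the 10 genes had a region, against 67.1% of protein-coding genes, and these 9 held 130 regions in all. The 67.1% is not matched for length. The median number of pooled regions was 1 over all protein-coding genes and 9 over those with a window of at least 20 kb.

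**Figure D1:**
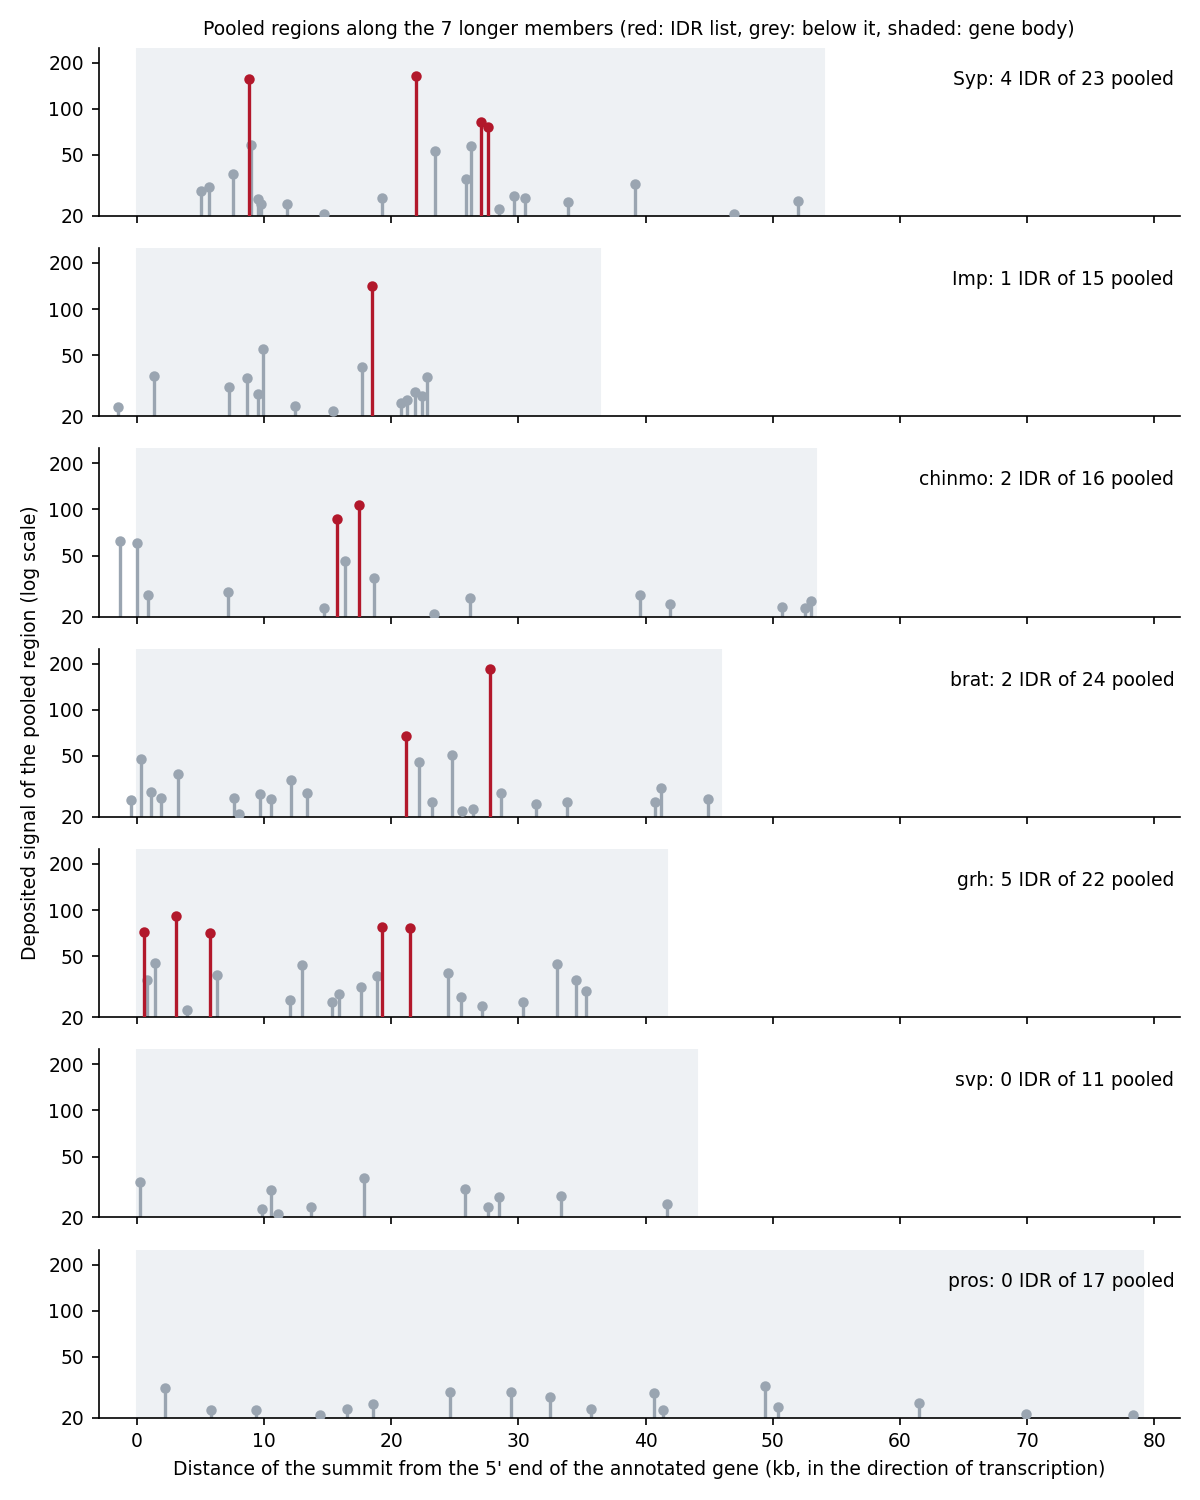
Pooled regions along the 7 genes with a window of at least 20 kb. The horizontal axis is the distance of the summit from the 5' end of the gene in kb, in the direction of transcription, and the vertical axis is the deposited pooled signal on a log scale. Red marks the 14 IDR regions and grey the weaker ones, and the shaded span is the gene body. In svp and pros all regions stay below a signal of 40, while single regions in Syp, Imp, chinmo and brat rise above 100.

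The sequences around 6 strong summits of brat, Syp, Imp and chinmo, all IDR regions in introns, show how different the bound stretches look. They are not the 6 strongest, because no grh region is printed. The grh region of pooled rank 648, also in an intron, is stronger than the printed chinmo region of rank 733. Each printed sequence is the plus strand of dm6, read from the RefSeq genome of the same build, within 50 bases of the summit and inside the region. Capitals mark a match to 1 of 8 motifs, on either strand. Those found here are runs of 8 A or T, GAGAG or CTCTC, and CACACACA or TGTGTGTG. The motifs were chosen with earlier results of these data known.
brat, rank 85, chr2L:19161503-19161600: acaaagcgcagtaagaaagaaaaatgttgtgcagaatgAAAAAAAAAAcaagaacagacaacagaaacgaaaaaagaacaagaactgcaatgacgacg
Syp, rank 114, chr3R:20778602-20778702: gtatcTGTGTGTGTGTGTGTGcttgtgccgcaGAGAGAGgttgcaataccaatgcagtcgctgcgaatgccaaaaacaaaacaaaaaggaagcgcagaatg
Syp, rank 130, chr3R:20765484-20765584: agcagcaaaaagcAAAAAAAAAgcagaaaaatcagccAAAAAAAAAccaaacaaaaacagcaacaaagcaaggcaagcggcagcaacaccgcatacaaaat
Imp, rank 178, chrX:10805760-10805860: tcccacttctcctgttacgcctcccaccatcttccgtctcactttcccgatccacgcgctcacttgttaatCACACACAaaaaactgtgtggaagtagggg
chinmo, rank 418, chr2L:1668650-1668750: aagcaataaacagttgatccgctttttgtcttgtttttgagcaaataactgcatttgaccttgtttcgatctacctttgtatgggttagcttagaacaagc
chinmo, rank 733, chr2L:1666949-1667049: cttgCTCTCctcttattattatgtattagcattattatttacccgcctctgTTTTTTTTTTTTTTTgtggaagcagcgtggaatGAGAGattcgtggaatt
The strongest region of brat and the Syp region of rank 130 are rich in A on this strand, the Syp region of rank 114 holds a TG repeat beside a GA repeat, and the stronger chinmo region holds none of the 8 motifs.

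Syp (FBgn0038826, 3R, 20756729 to 20810726, plus strand) encodes an RNA-binding protein of the hnRNP family that represses chinmo in late neuroblasts. It had 2 regions that were strong in both replicates. The first, at 20778522 to 20778781, lay in an intron, 243 bp upstream of an internal transcription start site (TSS). Its pooled rank was 114 (signal 164.3), and both replicates gave it rank 88, with signals of 92.2 in replicate 1 and 94.0 in replicate 3. This was the only IDR region of the 10 genes within 500 bp of a TSS of its own gene. The second, at 20765404 to 20765663, lay in an intron 8805 bp from the nearest Syp TSS. Its pooled rank was 130, against 187 in replicate 1 and 99 in replicate 3. A further pair stood close together 27.0 and 27.6 kb from the gene start. Of these, the region at 20783638 to 20783897 ranked 559 in replicate 1 and 1246 in replicate 3. Its neighbour at 20784189 to 20784448 ranked 4276 and 914, so only the first of the pair was in both top sets. Syp held 23 pooled regions, and 4 IDR summits where the density of the 6 arms gives 0.617, which is 6.48 times that density (exact 95% Poisson interval 1.77 to 16.6, counting error only). The interval takes summits as independent, although the pair above lay close together, and it is not a test. Among the other protein-coding genes, 38 had at least 4.

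Imp (FBgn0285926, X, 10787869 to 10824277, minus strand) encodes the RNA-binding protein that opposes Syp in early neuroblasts. It had a single IDR region, at 10805680 to 10805939, in an intron and 1046 bp downstream of the nearest of its 5 annotated TSSs. That region had pooled rank 178 (signal 140.5), rank 207 in replicate 1 (signal 70.8) and rank 293 in replicate 3 (signal 64.4), well inside both top sets. The next region of Imp had pooled rank 2164, with 2523 and 2231 in replicates 1 and 3. One IDR summit is 2.36 times the arm density, and its exact Poisson interval, 0.0598 to 13.2, includes a density equal to that of the arms.

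chinmo (FBgn0086758, 2L, 1651258 to 1704682, plus strand) encodes a BTB zinc finger transcription factor of early-born neurons and is the shared target of Imp and Syp. Its 2 IDR regions stood to either side of its internal TSS, 853 bp downstream (1668570 to 1668829) and 848 bp upstream (1666869 to 1667128), both in introns. The downstream region had pooled rank 418, rank 2068 in replicate 1 (signal 30.1) and rank 223 in replicate 3 (signal 70.1). The upstream one ranked 733, 2215 and 583 in the same order. Both ranked far higher in replicate 3, and neither was in the top set of replicate 1. The 2 summits are 3.27 times the arm density, with an exact Poisson interval, 0.396 to 11.8, that includes the arm density, and 284 other protein-coding genes had at least as many. A weaker pooled region of rank 3145 lay between the IDR regions, 244 bp from that TSS, and here replicate 1 (rank 1377) placed it higher than replicate 3 (rank 5126). Regions at the start of the gene fell just outside the IDR list. One lay 1285 bp upstream of the first TSS (pooled rank 1638, signal 62.3, ranks 1570 and 1702) and 1 lay 48 bp downstream of it in the 5' UTR (pooled rank 1729, signal 60.6, ranks 2296 and 1434). The weakest region of the 10 genes inside the list was one of brat, at rank 1380 with a signal of 67.4.

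brat (FBgn0010300, 2L, 19133816 to 19179758, plus strand) encodes a TRIM-NHL translational repressor that stops daughters from returning to the stem cell state. It held the strongest region of the 10 genes, at 19161503 to 19161602 in an intron, 3010 bp downstream of the nearest brat TSS, at pooled rank 85 (signal 183.5). The replicates placed this signal differently. Replicate 3 had a region of 92 bp there with its summit 3 bp from the pooled one, at rank 33. Replicate 1 had no region at the pooled summit. Its nearest region, of rank 416, began at 19161605, just past the end of the other, and the summits of the 2 replicates stood 157 bp apart. This was the 1 IDR region of the 14 not matched by both replicates. The second brat region, at 19154825 to 19155084 and 3585 bp upstream of the same TSS, had pooled rank 1380, with 1611 in replicate 1 and 2510 in replicate 3. The count of 2 is 3.78 times the arm density, again with an interval that includes it, 0.458 to 13.7. Replicate 1 had another strong region in the window, of rank 805, for which the pooled list and replicate 3 had none at the summit. It lay 1840 bp upstream of brat but 22 bp from a TSS of AsnRS, an aminoacyl-tRNA synthetase gene. Also in the top set of replicate 1 was a region of rank 1084, in an intron 2489 bp from a brat TSS. At its summit the pooled list had a region of rank 3291 and replicate 3 one of rank 2896, with its summit 112 bp away.

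pros (FBgn0004595, 3R, 11328480 to 11407627, plus strand) encodes the homeodomain factor that ends division in the daughter. It is the longest of the 10 genes, and its 17 pooled regions were all weak. The strongest ranked 7936 in the pooled list (signal 32.5), had no region of replicate 1 at its summit, and ranked 11685 in replicate 3. The best regions anywhere in the window ranked 12156 in replicate 1 and 7953 in replicate 3, and the pooled summit at the latter lay inside KP78a and KP78b, kinase genes within the span of pros, 49 bp from a TSS of theirs. At the arm density 0.895 IDR summits would fall in a window of this length, and the exact Poisson interval on a count of 0 reaches 4.12 times that density. mira (FBgn0021776, 3R, 19931799 to 19935120, minus strand) encodes the adaptor that carries Pros and Brat. It had 1 pooled region, 621 bp upstream of its TSS and also inside the span of Hs6st, at rank 11737, with ranks of 20075 in replicate 1 and 15412 in replicate 3.

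grh (FBgn0259211, 2R, 17801132 to 17842820, plus strand) encodes the Grainyhead transcription factor, which acts in late neuroblasts and is also a regulator of epidermal genes. It had the most IDR summits of the 10 genes, 5, where the arm density gives 0.482, or 10.4 times that density (exact Poisson interval 3.37 to 24.2). Among the other protein-coding genes, 20 had at least 5. None of the 5 was among the strongest of the list, their pooled ranks running from 648 to 1240. The region at 17804114 to 17804373, 1377 bp downstream of a TSS, ranked 853 in replicate 1 and 1136 in replicate 3, and was the only one of the 5 in both top sets. The region at 17820241 to 17820500 differed most between replicates of the 13 regions that both matched, with rank 6671 in replicate 1 (signal 18.7) and 533 in replicate 3 (signal 52.4). The region at 17801534 to 17801793 lay in the 5' UTR, 532 bp from the first TSS, and also inside the antisense gene asRNA:CR45270, and it ranked 1867 and 1211. The remaining 2, at 17822474 to 17822733 and 17806725 to 17806984, ranked 1989 and 2572 in replicate 1 and 1524 and 890 in replicate 3.

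svp (FBgn0003651, 3R, 12258737 to 12302785, plus strand) encodes an orphan nuclear receptor that closes early temporal windows. Although its length is like that of brat and grh, its 11 pooled regions started at rank 5814 (signal 36.3), with ranks of 27148 in replicate 1 and 7789 in replicate 3, and that summit stood 30 bp from the TSS of lncRNA:CR46014. Replicate 3 had a region of rank 3072 near the first svp TSS, for which the pooled region ranked 6946 and replicate 1 had none. The summit of that pooled region also lay inside CG44037, 226 bp from a TSS of svp and of CG44037. cas (FBgn0004878, 3R, 5712975 to 5716805, minus strand), a zinc finger temporal factor gene, had no pooled region, no region of replicate 1 and 1 region of rank 21271 in replicate 3. dpn (FBgn0010109, 2R, 8228971 to 8232330, minus strand), a bHLH repressor gene that marks neuroblasts, had 1 pooled region of rank 25062 in its 3' UTR, and neither replicate had a region at that summit. It stood 25 bp from a TSS of asRNA:CR44275. Elsewhere in the dpn window replicate 1 had 2 regions, the best of rank 17624, and replicate 3 had 1 of rank 8102. The windows are 5.83 kb for cas and 5.36 kb for dpn, so a count of 0 IDR summits there says little. The exact Poisson interval reaches 57.4 times the arm density for cas and 62.4 times for dpn.

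**Figure D2:**
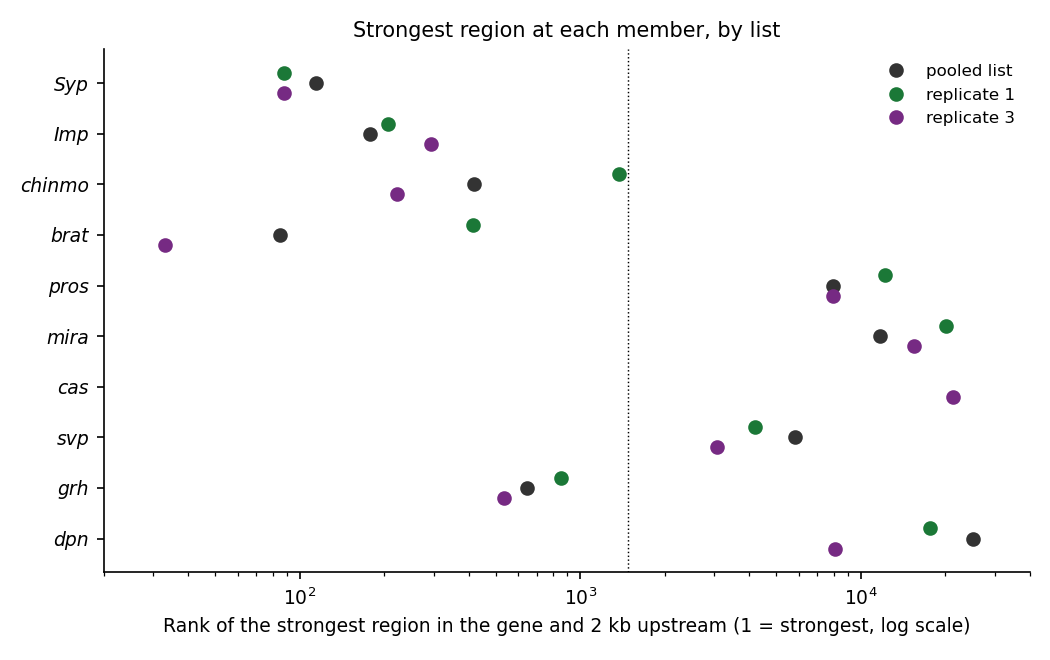
Rank of the strongest region in the window of each gene, on a log scale with 1 the strongest, in the pooled list, replicate 1 and replicate 3. The dotted line marks the end of the top set. All 3 points of Syp, Imp, chinmo, brat and grh lie left of it, from 33 to 1377, and those of the other genes lie at 3072 or beyond. No point is drawn where a list had no region, as for cas in the pooled list and replicate 1.

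The order of the genes by strongest pooled region was brat, Syp, Imp, chinmo, grh, then svp, pros, mira and dpn, with cas without one. The gap between the fifth and the sixth was wide, from rank 648 for grh to 5814 for svp. Within the first 5 the order was not shared by the replicates: Syp came first in replicate 1 (rank 88) and chinmo last (1377), whereas brat came first in replicate 3 (33) and grh last (533). Over all protein-coding genes, 98 had a stronger region than brat, 129 than Syp, 217 than Imp, 468 than chinmo and 725 than grh. No correction for gene length was made in these counts.

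In each replicate alone the same 5 genes had a region in the top set, against 11.0% of protein-coding genes in replicate 1 and 10.6% in replicate 3. All 5 have a window of at least 20 kb, and these shares were not matched for length. The replicates divided the regions unequally among them. Replicate 1 had 6 in Syp, 3 in brat, 2 in grh, 1 in chinmo and 1 in Imp, while replicate 3 had 4 in Syp, 4 in grh, 3 in chinmo, 1 in brat and 1 in Imp. Each sum is 13. Of the 13 in replicate 3, 12 were at IDR regions, and the other was the region in the 5' UTR of chinmo. Of the 13 in replicate 1, 5 were at IDR regions. Its other 8 included a Syp region of rank 249 (20765721 to 20765930), unmatched in replicate 3, whose nearest summit was that of rank 99, 273 bp away.

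**Figure D3:**
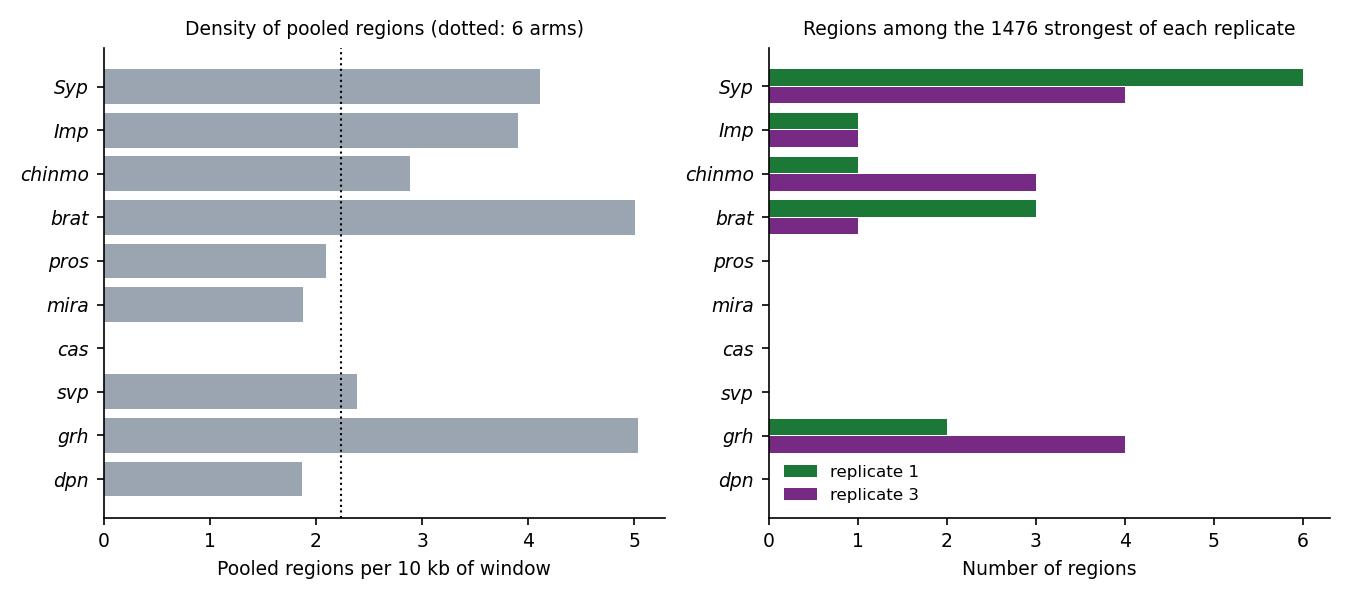
Left, pooled regions per 10 kb of window for each gene, with the density over the 6 arms as a dotted line at 2.24. Right, the number of regions of each gene in the top set of replicate 1 and of replicate 3. Syp and brat have more such regions in replicate 1, and grh and chinmo more in replicate 3, while the 5 other genes have none in either.

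Of the 14 IDR regions, 13 were matched at the summit by both replicates (92.9%, exact binomial 95% interval 66.1% to 99.8%), against 92.6% of all IDR regions. In both top sets were 5 of the 14, against 50.1% of all IDR regions. Taken singly, 5 of the 14 were in the top set of replicate 1 (70.7% of all IDR regions) and 12 in that of replicate 3 (74.1%). Of the 13 found in both, 8 ranked better in replicate 3, 4 in replicate 1 and 1 equally, and over all IDR regions found in both, 52.7% ranked better in replicate 3. The median ratio of the larger to the smaller rank was 1.89 for the 13 and 2.34 for all 1367. With 14 regions from 5 genes, several of them neighbours, these counts describe the regions and were not tested.

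**Figure D4:**
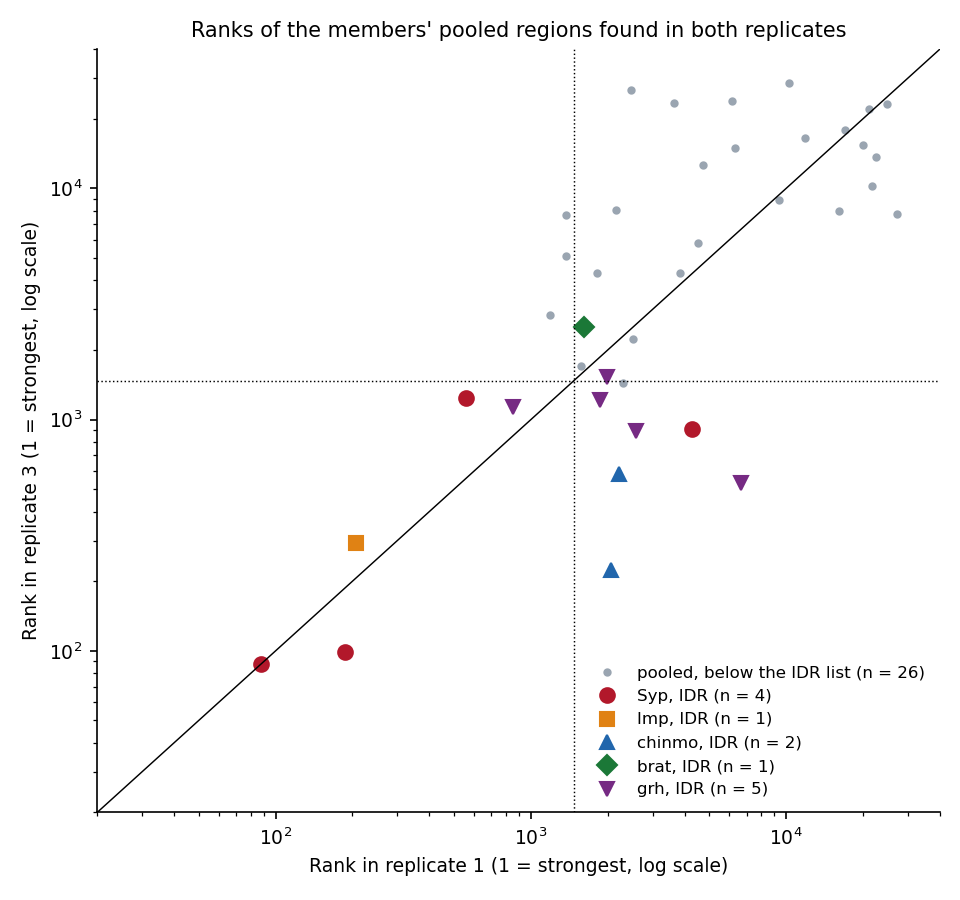
Rank in replicate 1 on the horizontal axis and rank in replicate 3 on the vertical axis, both on log scales with 1 the strongest, for the 39 pooled regions of the 10 genes found in both replicates. Coloured symbols are IDR regions by gene, grey points are weaker regions, dotted lines mark the ends of the top sets and the diagonal marks equal ranks. Syp regions of ranks 88, 187 and 559 in replicate 1, the Imp region and 1 grh region fall within both dotted lines, and both chinmo regions lie well below the diagonal.

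Over all 130 pooled regions of the 10 genes, 39 (30.0%, 22.3% to 38.7%) were matched at the summit by both replicates, against 25.8% of all pooled regions. A further 32 were matched in replicate 1 only, 38 in replicate 3 only and 21 in neither. Matching thinned with rank. Beside the 13 of 14 IDR regions it covered 7 of the 8 from there to rank 3000 and 10 of the 29 from 3001 to 10000. It covered 9 of the 49 from 10001 to 20000 and 0 of the 30 beyond. Shares over all pooled regions of these lower bands were not computed, so whether other genes differ was not tested. By gene the number found in both was 10 of 22 for grh, 7 of 16 for chinmo, 8 of 23 for Syp, 6 of 24 for brat, 3 of 15 for Imp, 2 of 11 for svp and 2 of 17 for pros. The signals of the 39 regions in the 2 replicates had a Spearman correlation of 0.665 and, on log2 values, a Pearson correlation of 0.742, against 0.533 and 0.665 over all 7752 pooled regions found in both. For the 13 IDR regions the Spearman value was 0.209 and the Pearson value 0.565, against 0.251 and 0.356 over all IDR regions found in both. All points share the same 2 libraries and the control, and neighbouring regions are not independent.

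Of the 14 IDR regions 13 lay in introns (92.9%, exact binomial 95% interval 66.1% to 99.8%) and 1 in a 5' UTR, and none lay in coding sequence or upstream of its gene. In all protein-coding genes with a window of at least 20 kb, 67.4% of IDR regions, counted once per gene, lay in introns, a share inside that interval. Introns make up 71.8% of the bases of the 7 long windows examined here and 81.5% of those of all such genes. The 116 weaker pooled regions of the 10 genes lay in introns in 94 cases, in 3' UTRs in 10, in 5' UTRs in 8 and upstream in 4. In windows of at least 20 kb, 82.5% of the weaker regions of these genes lay in introns. Over all protein-coding genes with such windows the share was 80.9%. Counting a TSS of any gene, 2 of the 14 summits lay within 500 bp of one, against 56.6% of all IDR regions and 41.4% of the 601 IDR regions in windows of at least 20 kb. The median distance to any TSS was 1191 bp for the 14, 952 bp for those 601 and 294 bp for all IDR regions. Besides the Syp region named above, the other within 500 bp was the grh region inside asRNA:CR45270.

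Within 50 bp of the summit, GAGAG, the repeat bound by GAGA factor, was present at 7 of the 14 (50.0%, exact binomial 95% interval 23.0% to 77.0%), against 25.5% of all IDR regions and 15.3% of all pooled regions in windows of the same 101 bp. These 7 were 2 regions of Syp, 3 of grh, 1 of chinmo and 1 of brat. CACACACA was present at 4 of the 14 (28.6%, 8.39% to 58.1%), 3 of Syp and the 1 of Imp, against 7.18% of all IDR regions and 3.56% of pooled ones. AAAAAAAA was present at 3 (21.4%, 4.66% to 50.8%), 1 each of brat, Syp and chinmo, against 17.4% and 8.03%. The E-box CAGCTG, a site type of proneural bHLH factors, was present at the weaker brat region only (7.14%), against 6.71% of all IDR regions and 5.08% of pooled ones. The other 4 motifs were at none of the 14. The forkhead-type sequence TGTTTAC stood at 4.34% of all IDR regions and 2.52% of pooled ones. For the DREF-type TATCGATA these shares were 1.63% and 0.800%. For the E-box CACGTG they were 1.36% and 1.25%, and for the Grainyhead-type AACCGGTT 0.271% and 0.197%. All motifs were searched on both strands, and a match is a run of letters, not a measured site. The shares over all regions were not matched for place, and the motifs were chosen with earlier results of these data known. The binomial intervals take the 14 regions as independent, although several are neighbours in the same gene. Of all IDR regions 56.6% lay within 500 bp of a TSS, against 2 of the 14. The windows had a median GC content of 48.5%, from 34.7% to 63.4%, against 45.5% for all IDR regions.

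In a wider list of 43 genes of the same field, 12 had an IDR summit, 8 of the 19 with a window of at least 20 kb and 4 of the 24 shorter ones, where the shares over protein-coding genes are 29.9% for windows of at least 20 kb and 9.05% for shorter ones. One of the 43, lncRNA:let7C, is noncoding. The 43 were also chosen with earlier results of these data known. The list of the late larval switch stood highest, with 4 of 5: mamo, EcR, br and lncRNA:let7C, but not Eip93F, a late ecdysone-induced factor whose best pooled rank was 6410. Its genes are also the longest, with a median of 81.2 kb. mamo, a BTB zinc finger gene, had 4 IDR summits in 144.4 kb, the strongest of pooled rank 49 (44 in replicate 1 and 75 in replicate 3). It lay 472 bp upstream of mamo and also inside lncRNA:CR44655. EcR, the ecdysone receptor gene, had 6, led by rank 140 (139 and 204). br, an ecdysone-induced zinc finger gene, had 5, led by rank 143 (61 and 369) in a region upstream of br that also lies inside Mur2B. The noncoding gene lncRNA:let7C had 2 in 17.4 kb, led by rank 1122 (2491 and 1393).

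Neuroblast identity and lineage genes had an IDR summit in 4 of 12. Over all protein-coding genes the share was 10.8%, which is not matched for length to this list or those below. pnt, an ETS factor gene of intermediate progenitor lineages, held a region of pooled rank 10 (5 and 27) among its 3. btd, an Sp-family zinc finger gene, had 1 at rank 126 (137 and 197), 211 bp from its TSS in a gene of 3.37 kb. klu, a zinc finger gene of self-renewal, had 2, led by rank 410, where replicate 1 ranked 1747 and replicate 3 had no region at the summit. lola, a BTB zinc finger gene, had 5, led by rank 431 (486 and 759) in a region that also lies inside asRNA:CR45135. The stem cell markers wor and ase had none, and for ase, as for esg, no pooled region was listed. Of 10 asymmetric division genes 3 had one: insc at rank 222 (334 and 161), in a region also inside sktl, numb at rank 996 (2063 and 906) and par-6 at rank 1354 (940 and 2312), upstream of par-6 and also inside CG8188. The optic lobe series had 1 of 12, hth, with 2 in 132.0 kb, led by rank 876 (1986 and 782), and no pooled region was listed for D, tll or scro. The embryonic series hb, Kr, nub and pdm2 had 0 of 4, with best pooled ranks from 2774 for pdm2 to 16742 for hb.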

How the data were processed

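ChIP-seq regions of 1 group of 2 replicates were used as deposited on dm6. The deposited signal is the value the authors' caller gave each region in narrowPeak format. Per the deposited text notes, each list derives from alignments and a control. Aligner, caller and threshold: not given in the sources used here. Read depth is unknown, so intervals cover counting error only. The Poisson and binomial intervals take summits or regions as independent, which neighbouring ones are not. Genes came from Ensembl release 115 (BDGP 6.54) and sequence from the RefSeq genome of the same build. Lists on dm3 were not used. Regions were ranked by signal within a list, and 1 region of replicate 3 outside the 6 arms was left out. A pooled summit inside a replicate's region counted as a match, with the strongest region taken where several held it. The 10 genes, the 43 others and the 8 motifs were chosen with earlier results of these data known. All 10 genes are named, and of the 43 those with an IDR summit. The others named were picked after their values were seen. No test between groups was possible. Summit assignment was tested on simulated regions. Alternatives were other windows, thresholds, overlap rules and single replicates. Versions were matplotlib 3.10.9, scipy 1.17.1, pandas 2.3.3, numpy 2.4.6 and Python 3.11.15.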

Additional observations from a re-analysis of the deposited data

How the results depend on the processing

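Of 28 recomputed values, 21 stayed close and 7 moved, where close means within 1.5 times for a count and inside the exact binomial 95% interval of the reported value for a share. Of the 7, 5 came from counting only summits within 500 bp of a TSS of the gene. That window left 1 gene of the 10 with an IDR summit, Syp, with 1 IDR region (in place of 14) and 16 pooled regions (in place of 130). It found 100% of that 1 region and 56.2% of the 16 in both replicates. With the stronger 50% of the IDR list 7 regions were left, and with the 3000 strongest pooled regions there were 22, each time in the 5 genes Syp, Imp, chinmo, brat and grh. The gene body alone, 5 kb upstream, and each replicate alone also gave these 5 genes, with 13 to 14 regions. When replicate summits had to lie within 100 bp of the pooled one, 78.6% of the IDR regions were found in both. No paired analysis was possible because there is 1 group only. The main limits are the unknown read depth, the whole-larva source and the small number of regions.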

Other observations

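Of the 14 IDR regions of the 10 genes, 3 had replicate summits over 100 bp apart or no region of replicate 1 at the summit: both of brat (157 bp and 105 bp) and the Syp region of rank 130 (123 bp). The strongest brat region and this Syp region hold a run of at least 8 A within 50 bp of the summit, and the weaker brat region does not. The chinmo region of rank 733 also holds such a run, of T, and its replicate summits stood 7 bp apart. This was noticed after the values were seen. Over all IDR regions with such a run of A or T, 31 of 257 (12.1%, exact binomial 95% interval 8.34% to 16.7%) were unmatched in a replicate or had summits over 100 bp apart, against 118 of 1219 (9.68%, 8.08% to 11.5%) without one. The intervals overlap, and no cause was tested.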
